A study of Mus musculus with 19 samples.

Results

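Homer1, Homer2, Homer3, Plcb1, Plcb3, Plcb4, Ncdn, Agap2 and Dgkz encode proteins that sit between the group I metabotropic glutamate receptors (mGluRs) and phospholipase C or phosphoinositide 3-kinase (PI3K). They were listed by symbol and not by a cut on measured values, but with earlier results of these data known. All 9 were found among the 20436 genes of both count tables. The samples were hippocampal slices from male wild-type mice aged 28 to 42 days, with slices of 6 mice pooled per replicate and area CA3 left in place. Slices received DHPG, an agonist of group I mGluRs, at 100 µM for 5 min or vehicle (basal), and every slice was then placed in cycloheximide at 100 µg/ml, which halts elongating ribosomes. RNA-seq gave 4 basal and 5 DHPG libraries, and ribosome profiling, which sequences the ribosome-protected fragments (RPFs) of mRNA, gave 5 of each. The DHPG RNA library of replicate 5 had no basal partner, and its block took it up in the fit, so that the RNA comparison rested on 4 pairs. Slices mix many cell types, so fewer cells of a type and less RNA per cell cannot be told apart.

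Group I mGluRs, among them mGluR5, act through G proteins of the Gq class on phospholipase C beta. This enzyme cleaves a membrane phosphoinositide into IP3, which opens calcium stores through its receptor, and diacylglycerol, which activates protein kinase C. Homer proteins bind a proline-rich stretch in the tail of these receptors and, through their long forms, tie the receptors to IP3 receptors and to the Shank scaffold of the postsynaptic density. In the hippocampus, DHPG given in this way is used to induce a long-term depression that depends on protein synthesis.

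The Homer genes and the phospholipase C beta genes are families of paralogs, so the first question was whether their reads could be told apart. The 60 coding bases at which the Homer paralogs were most alike are printed here 5′ to 3′. They are the in-frame window without gaps with the most shared bases, with Homer2 and Homer3 each matched to Homer1. How well reads are assigned there was not measured. Capitals mark bases not shared by all 3 genes.
Homer1 (mm10 chr13:93346578-93346637, plus strand, exon 3): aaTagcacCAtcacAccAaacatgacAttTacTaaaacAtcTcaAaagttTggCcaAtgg
Homer2 (chr7:81636424-81636483, minus strand, exon 3): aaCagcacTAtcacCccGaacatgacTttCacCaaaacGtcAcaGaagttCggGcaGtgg
Homer3 (chr8:70285940-70285999, plus strand, exon 4): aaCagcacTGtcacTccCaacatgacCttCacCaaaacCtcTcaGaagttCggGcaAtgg
Of these 60 bases, 46 were shared by all 3 genes, and the longest shared run was 8 bases. Homer2 and Homer3 had 53 bases in common there, Homer1 and Homer3 had 48, and Homer1 and Homer2 had 47.

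The most alike 60 coding bases of the phospholipase C beta genes were found in the same way, matched to Plcb1, and are shown with the same use of capitals.
Plcb1 (mm10 chr2:135337495-135337554, plus strand, exon 18): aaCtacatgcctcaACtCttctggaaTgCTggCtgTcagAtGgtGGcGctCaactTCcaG
Plcb3 (chr19:6959795-6959854, minus strand, exon 17): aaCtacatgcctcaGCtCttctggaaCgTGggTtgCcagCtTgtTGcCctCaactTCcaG
Plcb4 (chr2:135968379-135968438, plus strand, exon 22): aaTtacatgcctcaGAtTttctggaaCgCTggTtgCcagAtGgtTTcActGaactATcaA
Here 42 of 60 bases were shared by all 3, with a longest shared run of 11 bases. Over whole coding sequences, the Homer genes were identical at 58.7% to 60.2% of aligned bases. For Plcb1 and Plcb3 the identity was 63.9%, for Plcb1 and Plcb4 56.4%, and for Plcb3 and Plcb4 54.4%. No 30-base window of the coding sequence of any of the 9 genes occurred in an annotated protein-coding transcript of another gene. Shorter fragments, the untranslated regions of the 9 genes and matches to noncoding genes were not searched.

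The counts are totals per gene and do not separate isoforms. For Homer1 the annotation holds 11 complete coding isoforms of 180 to 370 codons, and its short form Homer1a lacks the coiled coil that links long Homer proteins to each other. The isoforms of Homer3 span 122 to 359 codons. Exons of 5 of the 9 genes overlap another annotated gene on the opposite strand. Homer3 shares 874 exonic bases with Ddx49, Homer2 shares 525 with Gm44570, Dgkz shares 222 with Gm9821, Plcb1 shares 178 with 9630028H03Rik and Plcb3 shares 22 with Ppp1r14b. Whether strand was used in counting is not given in the sources used here, so the values of these 5 genes may hold reads of the overlapping gene.

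The libraries held 4870813 to 7793244 counts in RNA and 5692064 to 22092434 in RPF. The lowest count of any of the 9 genes was 114 in an RNA library and 82 in an RPF library, and all 9 passed the filter on low counts in both assays. Marker genes of CA1, CA3 and dentate gyrus neurons were all detected, and so were those of interneurons, astrocytes, oligodendrocytes, microglia and endothelium. Values are given as CPM, counts scaled to the library's size after normalization.

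In basal slices the 9 genes covered a wide range of ribosome occupancy. Per kb of coding sequence, RPF levels were 1887 ± 208 CPM for Ncdn, 86.4 ± 10.8 for Homer1, 86.2 ± 4.98 for Plcb1, 82.3 ± 9.91 for Agap2 and 56.1 ± 3.59 for Dgkz (SD, n = 5). They were 23.1 ± 1.63 for Homer3, 20.2 ± 2.44 for Homer2, 10.6 ± 1.17 for Plcb4 and 4.88 ± 0.69 for Plcb3. Ncdn encodes neurochondrin, a neuronal protein that binds mGluR5, and ranked 44 of 12723 genes with a known length. Homer1, Plcb1 and Agap2 lay between the 82.9 and 83.6 percentiles of all genes, whereas Plcb4 lay at the 37.9 and Plcb3 at the 22.4 percentile.

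Not every step in this order was larger than the spread between libraries. Homer1 was above Plcb1 in 3 of 5 libraries and Plcb1 above Agap2 in 3 of 5, so these 3 did not separate. Homer3 was above Homer2 in 4 of 5 libraries, with overlapping ranges. All other neighbours kept their order in 5 of 5 libraries without overlap. The order also depends on which isoform supplies the length. With the shortest annotated coding sequence, Homer1 came to 189 CPM per kb, Homer3 to 76.8 and Homer2 to 25.0, so that Homer3 moved past Dgkz (68.0).

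In RNA, per kb of transcript, the order was different. Ncdn was again highest with 1016 ± 176 CPM per kb (SD, n = 4), followed by Agap2 (322 ± 74.5), Dgkz (177 ± 41.8), Plcb1 (36.6 ± 6.26), Homer1 (23.8 ± 5.33), Homer2 (17.0 ± 2.38), Homer3 (14.9 ± 1.78), Plcb3 (6.86 ± 0.33) and Plcb4 (5.36 ± 1.34). Agap2 encodes a GTPase, also called PIKE, that joins Homer to PI3K, and its RNA stood at the 98.9 percentile of 12457 genes. Dgkz, the diacylglycerol kinase that turns diacylglycerol into phosphatidic acid, stood at the 97.4 percentile. Homer1 and Homer2, Homer2 and Homer3, and Plcb3 and Plcb4 had overlapping ranges. This order depended on the isoform even more than that in RPF. With the transcript of the shortest coding sequence, Homer1 came to 131 CPM per kb and lay above Plcb1 (66.5), Homer3 came to 41.5, Plcb4 (7.70) lay above Plcb3, and Homer2, whose transcript of that kind is the longest of its 3, fell to 2.54 and was the lowest of the 9.

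**Figure D1:**
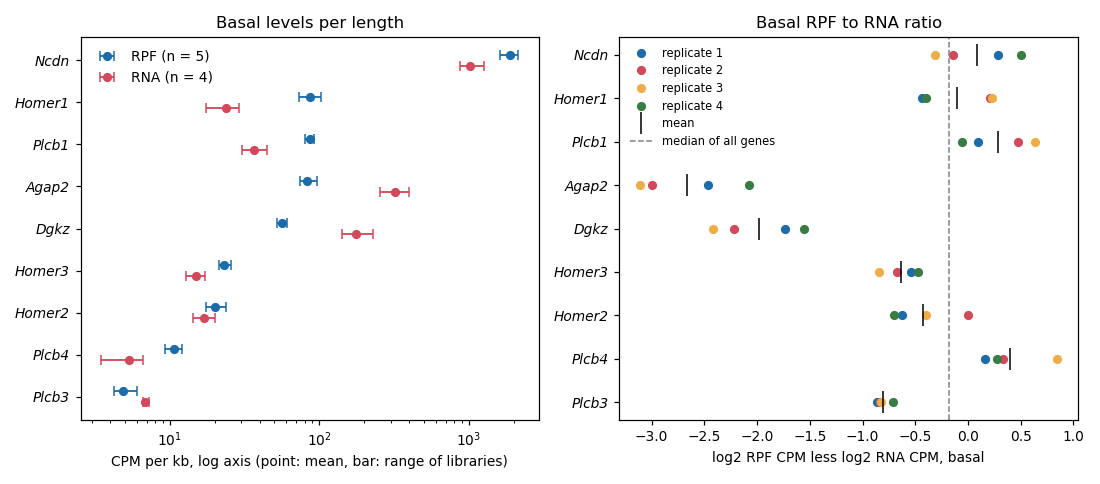
Left, basal level of each gene in CPM per kb on a log axis, RPF per kb of coding sequence (5 libraries) and RNA per kb of transcript (4 libraries), with points for means and bars for the range of libraries. Right, log2 RPF CPM less log2 RNA CPM in the 4 basal replicates with both libraries, in which Agap2 and Dgkz lie apart from the other 7 genes on the low side.

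Within families, one paralog carried most of the ribosome occupancy per kb of the longest coding sequence. The Homer shares depend on that choice. Homer3 came to 23.1 CPM per kb with its longest and 76.8 with its shortest coding sequence, and Homer1 to 86.4 and 189. Homer1 held 66.5 ± 1.90% of the summed Homer RPF level per kb in basal slices (SD, n = 5), Homer3 17.9 ± 1.72% and Homer2 15.6 ± 0.90%. After DHPG the shares were 66.9 ± 4.35%, 17.9 ± 3.83% and 15.2 ± 1.99%. Of the 3 phospholipase C beta genes, Plcb1 held 84.7 ± 1.53% in basal slices, Plcb4 10.5 ± 1.14% and Plcb3 4.80 ± 0.67%. After DHPG these were 83.9 ± 1.80%, 11.4 ± 1.95% and 4.62 ± 0.78%, and each share moved by less than the SD of its basal libraries. Plcb2, the remaining phospholipase C beta gene and mainly one of blood cells, had only 8 to 29 counts per basal RPF library (1.18 to 2.31 CPM) and 3 to 18 counts in the RNA libraries.

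The RPF to RNA ratio, the CPM in RPF over the CPM in RNA of the same basal replicate, separated Agap2 and Dgkz from the other genes. For Agap2 the log2 ratio was -2.47, -2.99, -3.11 and -2.08 in replicates 1 to 4, with a mean of -2.66 ± 0.48 (SD, n = 4), which is an RPF CPM of 0.158 times the RNA CPM. Dgkz had log2 ratios of -1.74, -2.21, -2.42 and -1.55 in these replicates (mean -1.98 ± 0.40). The median of 12691 genes was -0.18, and Agap2 stood at the 1.29 percentile and Dgkz at the 4.46 percentile. The highest single ratio of these genes was -1.55 and the lowest of the other 7 genes was -0.86, and the means of the other 7 ran from -0.81 ± 0.07 for Plcb3 to 0.40 ± 0.30 for Plcb4.

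RNA was counted on whole transcripts and RPFs on coding sequence, so a long noncoding end lowers the ratio. Per kb on each side, Agap2 had 0.255 times and Dgkz 0.319 times as much RPF as RNA, at the 1.46 and 2.57 percentiles of 12229 genes. Homer1, with a long transcript for its coding sequence in the isoform used, moved from the 53.4 to the 76.1 percentile. That move rests on the isoform, since its levels per kb were 86.4 in RPF and 23.8 in RNA with the longest but 189 and 131 with the shortest coding sequence. After DHPG the mean log2 ratios were -2.69 ± 0.37 for Agap2 and -2.04 ± 0.29 for Dgkz (SD, n = 5).

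Ratios also moved with base composition. Among 2446 genes in the GC-richest of 5 equal groups by transcript GC content, the median log2 ratio was -0.74, against 0.46 in the GC-poorest group. The Agap2 transcript is 63.0% G or C and that of Dgkz 59.6%, both in the GC-richest group, within which they stood at the 2.70 and 9.89 percentiles. Ncdn (59.9% GC) and Homer3 (59.4%) are in the same group and stood at its 81.4 and 54.5 percentiles.

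The coefficient of variation was larger in RNA than in RPF for 8 of the 9 genes in basal slices (all but Plcb3) and for 6 of 9 after DHPG (all but Homer1, Plcb3 and Ncdn). Agap2 RNA was 1480.5, 2103, 2244 and 1428 CPM in basal replicates 1 to 4 and 1739.7, 2096, 2507, 1797 and 1572 in DHPG replicates 1 to 5. Replicates 2 and 3 were high with and without DHPG. Dgkz was likewise highest in replicates 3 and 2, with 601, 803, 956 and 595 CPM in basal slices and 684, 814, 1002, 679.8 and 706 after DHPG. Homer1 had the opposite order in basal RNA, with 116, 92.9, 74.5 and 125 CPM, and after DHPG replicate 3 was again lowest and replicate 4 highest (109.8, 111, 86.0, 128 and 103 CPM in replicates 1 to 5).

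The orders of these 3 genes moved with the GC content of their transcripts. Homer1 (37.8% GC), Plcb4 (43.5%) and Plcb1 (43.9%) are in the GC-poorest group, and Agap2, Ncdn, Dgkz, Homer3 and Plcb3 (57.1%) in the GC-richest. Across all genes tested in RNA, the median log2 deviation from the group mean in basal replicate 3 was -0.33 in the GC-poorest and 0.28 in the GC-richest group. In basal replicate 4 it was 0.28 and -0.24. The RPF libraries differed less, with medians from -0.08 to 0.11 in the GC-poorest group and from -0.10 to 0.10 in the GC-richest.

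**Figure D2:**
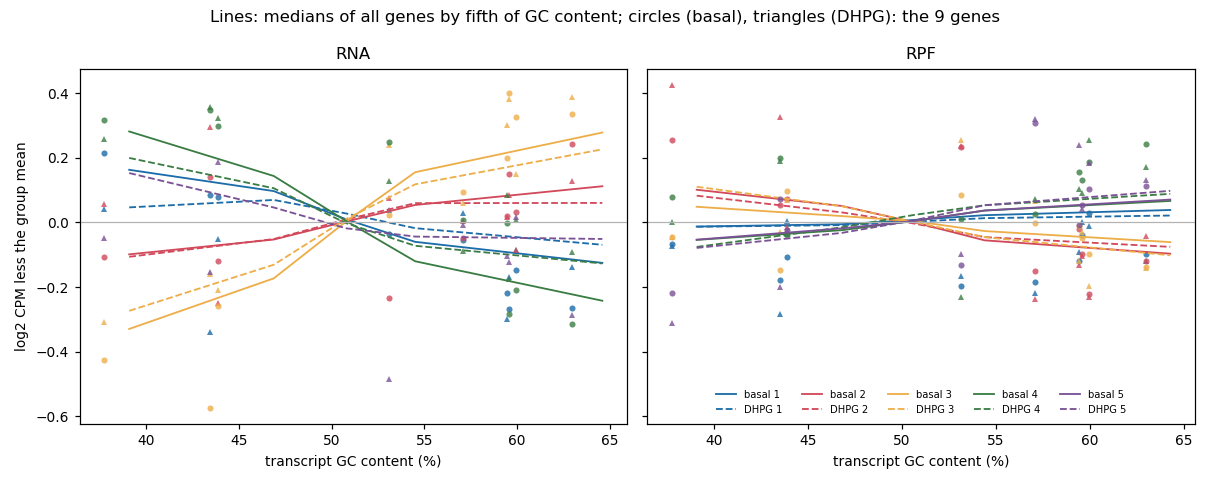
Deviation of log2 CPM from the mean of the group in each library against transcript GC content, for RNA (left) and RPF (right). Lines join the medians of all genes in 5 equal groups by GC content, drawn at the middle of each group's range, and circles and triangles are the 9 genes. In RNA the lines of replicates 3 and 4 cross with opposite slopes, and Homer1 and Agap2 lie to the same sides as these lines.

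DHPG was then compared with vehicle in edgeR, with the replicate number as block and p-values adjusted over all genes tested. None of the 9 genes passed the threshold in RNA (adjusted p of 0.01), RPF (0.05) or the RPF to RNA ratio (translational efficiency, TE, 0.05). Over all genes 0.00773% passed in RNA, 0.22% in RPF and 0% in TE, and these shares come to less than 1 call among 9 genes. At an unadjusted p under 0.05 there were 2 of 9 in RNA (Plcb4 and Agap2) against 8.02% of all genes, 1 of 9 in RPF (Plcb4) against 10.8%, and 0 of 9 in TE against 6.77%. DESeq2 with the replicate block, which left some of the 9 without an adjusted p in RPF, called none in RNA or RPF. The basal and DHPG libraries overlapped for each of the 9 genes, whereas 0.51% of all genes in RNA and 0.394% in RPF had groups that did not. A change in the same direction in every pair was seen in RNA for Dgkz alone (15.6% of all genes) and in RPF for none of the 9 (9.89% of all genes).

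Homer1 RPF was 86.0, 108, 87.4, 95.1 and 77.5 CPM in basal replicates 1 to 5 and 87.1, 123, 88.7, 91.7 and 73.7 after DHPG. Replicate 2 was highest and replicate 5 lowest in both groups, and the groups overlapped throughout. The fitted log2 fold change was 0.03 (SE 0.04, 95% interval -0.05 to 0.11, adjusted p = 0.821). In RNA it was 0.09 (SE 0.08, adjusted p = 0.786), and 0.04 to 0.15 when 1 replicate number was left out. With an offset for GC content in the same blocked fit, Homer1 RNA gave 0.15 (SE 0.07, 95% interval 0.02 to 0.29, adjusted p = 0.509). This offset was taken from deviations within each treatment group, so it cannot take out a GC shift shared by the DHPG libraries. For Homer2 the log2 fold change was 0.13 (SE 0.10) in RNA, where it ran from 0.08 to 0.22 without 1 replicate number, and 0.001 (SE 0.06) in RPF, and for Homer3 it was -0.004 (SE 0.09) and -0.02 (SE 0.06). Thus the 95% intervals in RPF allowed changes of at most 0.13 in either direction for Homer2 and of -0.14 to 0.11 for Homer3.

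Of the enzymes, Plcb1, the main hippocampal form in these libraries, was the least variable in RPF, with 287 to 330.0 CPM in basal slices and 300.4 to 323 after DHPG. The fit for its RPFs gave -0.01 (SE 0.03, 95% interval -0.07 to 0.05). In RNA Plcb1 gave -0.04 (SE 0.07). Plcb3, with 15.5 to 21.9 CPM in basal RPF and 14.4 to 21.3 after DHPG, was lower in 4 of 5 pairs with a log2 fold change of -0.04 (SE 0.07). In RNA Plcb3 was among the steadiest of the 9 genes, at 28.1 to 31.2 CPM in basal slices and 27.8 to 30.9 after DHPG.

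Plcb4, a form known from cerebellar Purkinje cells, thalamus and retina, had the largest fitted change of the 9 in both assays, although in RNA that of Agap2 was larger without replicate 2 (0.24 against 0.21) and without replicate 3 (0.19 against 0.15). Its RPF was 32.4, 38.1, 33.1, 42.1 and 38.6 CPM in basal replicates 1 to 5, and 32.9, 50.3, 39.2, 45.7 and 34.9 after DHPG. The value was higher after DHPG in replicates 1 to 4, by only 0.02 on the log2 scale in replicate 1, and lower in replicate 5, and the groups overlapped. The RPF log2 fold change was 0.16 (SE 0.06, unadjusted p = 0.00661, adjusted p = 0.265). Without replicate 5 it was 0.23 and passed, with an adjusted p of 0.0461 in edgeR. Over the 13 alternatives it ran from 0.08 to 0.23 with adjusted p up to 0.99997, and this was the one that passed.

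In RNA Plcb4 was 28.9, 30.1, 18.2 and 34.7 CPM in basal slices and 25.3, 39.4, 28.7, 41.2 and 28.8 after DHPG, higher in 3 of 4 pairs. The RNA log2 fold change was 0.26 (SE 0.11, unadjusted p = 0.0251, adjusted p = 0.578). It was 0.15 without replicate 3 and 0.40 without replicate 1. With an offset for GC content in the same blocked fit it was 0.29 (adjusted p = 0.458, against 0.425 to 0.99994 over all alternatives).

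The summed level of thalamus marker genes changed in the same direction as Plcb4 in every RPF pair, but not in RNA replicate 1. Of 14 such genes, none was at 0 in all libraries, and their summed level was 345 to 415 CPM in basal RPF and 350.4 to 517 after DHPG. All 13 that were tested in RPF had a positive log2 fold change (median 0.31, against 0.003 over all genes), and 6 of them passed. In RNA the sum was 324 to 442 CPM in basal slices and 391 to 522 after DHPG, with 11 of 11 positive (median 0.46) and 1 past the threshold. By replicate pair, the list changed by 0.14, 0.29, 0.31, 0.32 and -0.16 on the log2 scale in RPF, and Plcb4 by 0.02, 0.40, 0.24, 0.12 and -0.15. Replicate 5 was the one negative pair for both. It was also the one negative pair of the oligodendrocyte list, which changed by 0.12, 0.21, 0.01, 0.22 and -0.13 in RPF. In RNA the thalamus list changed by 0.07, 0.19, 0.31 and 0.24 and Plcb4 by -0.19, 0.38, 0.64 and 0.24. The oligodendrocyte list changed by 0.12, 0.22, 0.10 and 0.20 there, with 10 of 10 genes positive (median 0.16). The marker lists were chosen with earlier results of these data known, so their direction of change is no independent evidence. The part of thalamic tissue in the Plcb4 values was not tested. Of the other marker lists, RPF medians ran from -0.22 (endothelial, 0 of 9 positive) to 0.10 (microglia, 10 of 10 positive), with 1 of 10 oligodendrocyte and 1 of 10 interneuron genes past the threshold and 1 of 7 choroid plexus genes at 0 in RNA.

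**Figure D3:**
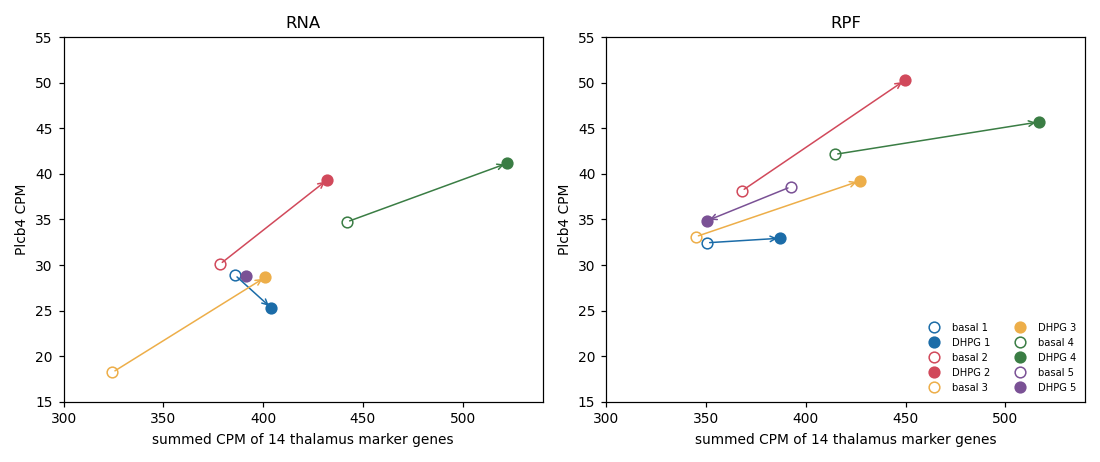
Plcb4 CPM against the summed CPM of 14 thalamus marker genes in each RNA library (left) and RPF library (right), with arrows from the basal library (open) to the DHPG library (filled) of the same replicate. In RPF the arrows of replicates 1 to 4 point to higher values on both axes and that of replicate 5 to lower ones. The marker list was chosen with earlier results of these data known. The axes do not start at 0.

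Among the partners outside the Homer and phospholipase C families, Ncdn gave a log2 fold change of 0.03 (SE 0.07) in RNA and 0.002 (SE 0.03, 95% interval -0.06 to 0.06) in RPF, where it was 3429.7 to 4547 CPM in basal slices and 3408 to 4774 after DHPG. Agap2 RNA, listed above by library, was higher after DHPG in 3 of 4 pairs. The differences on the log2 scale were 0.23, -0.005, 0.16 and 0.33, and the fit gave 0.18 (SE 0.07, unadjusted p = 0.0105, adjusted p = 0.545). The 2 largest of these, in replicates 1 and 4, came from pairs in which the GC-richest genes as a whole also had positive medians of 0.10 and 0.16. Taken against the median of that GC group, Agap2 differed by 0.14, 0.01, 0.17 and 0.18. With the GC offset its log2 fold change was 0.17 (SE 0.05, adjusted p = 0.456). That offset leaves in any GC shift shared by the DHPG libraries. The study's methods name ComBat and then DESeq2, over more replicates than those used here. Log2 CPM corrected by ComBat, turned back into counts and tested by DESeq2, gave 0.17 for Agap2 RNA with an adjusted p of 0.00546, which passed. Over the 13 alternatives Agap2 RNA ran from 0.10 to 0.24 with adjusted p up to 0.99994, and passed in that one.

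In RPF, Agap2 was 267, 264, 260.4, 339 and 309.5 CPM in basal slices and 273, 288, 269, 334 and 324 after DHPG. Replicates 4 and 5 were highest in both groups. The log2 fold change was 0.05 (SE 0.03, 95% interval -0.01 to 0.11, adjusted p = 0.565). Dgkz RNA differed by 0.19, 0.02, 0.07 and 0.19 in its 4 pairs, with a fitted log2 fold change of 0.12 (SE 0.06, adjusted p = 0.661). Taken against the median of the GC-richest group, Dgkz RNA differed by 0.09, 0.04, 0.07 and 0.04. With the GC offset its log2 fold change was 0.11 (SE 0.05, adjusted p = 0.585). Here too a GC shift shared by the DHPG libraries stays in. Dgkz RPF was 180.2, 173, 179, 203 and 192 CPM in basal slices and 187, 174, 183, 199 and 192 after DHPG, and its log2 fold change was 0.01 (SE 0.03).

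**Figure D4:**
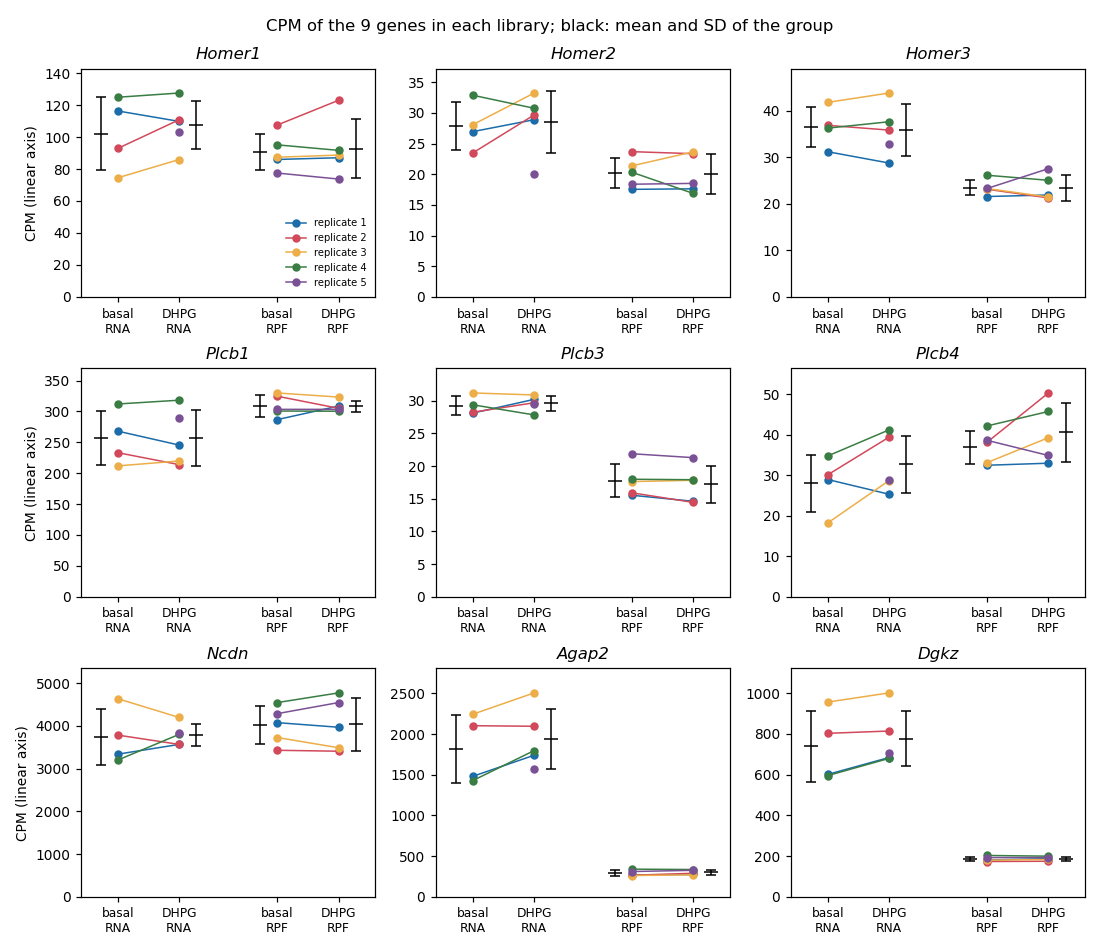
CPM of each gene in every library on linear axes that start at 0, with lines joining the basal and DHPG libraries of one replicate and black bars for the mean and SD of each group. Agap2 and Dgkz show far higher values in RNA than in RPF, and in every panel the basal and DHPG points overlap.

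TE compares the RPF and RNA changes in 1 model over the same 19 libraries, so it is no separate evidence for either. The fitted TE change was negative for 8 of the 9 genes (median -0.06, against -0.001 over all genes, of which 49.5% were positive). The changes for Agap2 were -0.13 (SE 0.06, unadjusted p = 0.0556, adjusted p = 0.727) and for Homer2 -0.13 (SE 0.11). For Dgkz the value was -0.10 (SE 0.06, adjusted p = 0.777), for Plcb4 -0.10 (SE 0.13) and for Plcb1 0.03 (SE 0.07). The RPF side of these fits rested on 5 pairs and the RNA side on 4, without a pair of replicate 5. Over the 10 alternatives run on TE, that of Plcb4 ran from -0.22 to -0.02.

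The other genes of the pathway were taken from 4 lists of 105 symbols in all, of which 103 matched the tables. None of 102 tested in RNA, 100 in RPF or 99 in TE passed in edgeR. At an unadjusted p under 0.05 there were 14 in RNA, 8 in RPF and 7 in TE, or 13.7%, 8.00% and 7.07% of those tested, against 8.02%, 10.8% and 6.77% of all genes. Their median log2 fold changes were 0.02 in RNA and 0.004 in RPF, against 0.007 and 0.003 over all genes.

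The list of receptors and Gq proteins had 9 of 11 positive values in RPF, where 51.4% of all genes were positive, and none at an unadjusted p under 0.05. Grm5, which encodes mGluR5, had 384 ± 29.8 CPM in basal RPF and 389.8 ± 39.3 after DHPG (SD, n = 5), with a log2 fold change of 0.02 (SE 0.03). Calm3, 1 of the 3 calmodulin genes, gave 0.05 (SE 0.03, adjusted p = 0.553). In RNA the smallest p values were those of Grk4, a receptor kinase with only 7 to 29 counts per library (-0.82, SE 0.27, adjusted p = 0.538), and of Gna11, for a Gq class alpha subunit (0.15, SE 0.07, adjusted p = 0.609).

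Of the phosphoinositide cycle, 26 of 52 genes had positive values in RPF, near the 51.4% of all genes. Dgkg and Dgkb, which encode other diacylglycerol kinases, had the smallest p values. Dgkg was 222 ± 18.4 CPM in basal RPF and 206 ± 22.1 after DHPG, lower in 5 of 5 pairs (-0.12, SE 0.03, adjusted p = 0.124). Of all genes, 9.89% had the same direction in every RPF pair. Dgkb gave -0.09 (SE 0.03, adjusted p = 0.284). In RNA the smallest p values belonged to Pitpnm2, a phosphatidylinositol transfer protein (0.19, SE 0.07, adjusted p = 0.545), and Dagla, which makes the endocannabinoid 2-AG from diacylglycerol (0.17, SE 0.07, adjusted p = 0.578). Plcb2 gave 0.14 (SE 0.34) in RNA and -0.01 (SE 0.22) in RPF, intervals too wide to compare with the other 3.

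For scaffold proteins of Homer and mGluRs, 7 of 20 genes had an unadjusted p under 0.05 in RNA, 6 of them positive, and 1 of 20 in RPF, against 8.02% and 10.8% of all genes. Shank3, the postsynaptic scaffold that Homer binds, was higher in 4 of 4 RNA pairs (0.27, SE 0.07, unadjusted p = 0.000475, adjusted p = 0.323). Of all genes, 15.6% had the same direction in every RNA pair. The Shank3 differences were 0.29, 0.09, 0.27 and 0.44, largest in replicates 1 and 4 as for Agap2, and were not set against a GC group. Dlgap4 gave 0.22 in RNA (SE 0.07, adjusted p = 0.538). In RPF, Shank1 gave 0.08 (SE 0.04, adjusted p = 0.388) and Dlgap3 0.08 (SE 0.04, adjusted p = 0.479). In the PI3K list, 4 of 17 genes had positive values in RPF, against 51.4% of all genes, and 13 had negative ones (median -0.03, against 0.003). Pik3ca, a catalytic subunit of PI3K, gave -0.16 (SE 0.06, adjusted p = 0.274) and was lower in 5 of 5 pairs. The same direction in every RPF pair was seen for 9.89% of all genes. In RNA, Agap1, the paralog of Agap2, gave 0.19 (SE 0.07, adjusted p = 0.558) and Pik3r3, a regulatory subunit, -0.24 (SE 0.11, adjusted p = 0.599).

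Likeness of pattern was measured in RPF by Pearson's r of log2 CPM over 10 libraries after the mean of each replicate was removed, which leaves 5 pair differences, so that high values are common. The 3 genes most like Plcb4 were Fam20c (r = 0.990), Dpp10 (0.984) and Ccdc23 (0.984), but 76 of 13207 genes exceeded 0.9. For Agap2 they were Gng10 (0.999), Atp1b2 (0.996) and Scara3 (0.992) with 111 genes above 0.9, for Plcb3 Pmm1 (0.994), Prdx1 (0.993) and Rdx (0.986) with 163, and for Homer1 Xkr4 (0.990), Dgkh (0.981) and Npr2 (0.980) with 67.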

How the data were processed

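Tables of expected counts per gene from RSEM were deposited by the authors as whole numbers, without normalization. Before that, per the labels and the study's methods, the authors trimmed adapters (cutadapt), removed rRNA and tRNA reads (Bowtie2), aligned the rest to mm10 (TopHat2) and removed duplicates by molecular identifiers. RPFs were counted on coding sequence without the first and last 30 bases, and RNA on whole transcripts. In each table columns of replicates 6 to 8 belong to no sample here (12 columns in all) and were not used.

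R 4.3.3 with edgeR 4.0.16 (TMM, filterByExpr, quasi-likelihood F test, Benjamini-Hochberg over all genes), limma 3.58.1, DESeq2 1.42.0 and sva 3.50.0 were used, and a gene passed at an adjusted p under 0.01 in RNA, or under 0.05 in RPF or TE. TE was the interaction of assay and treatment over 19 libraries. Every adjusted p is from edgeR unless another tool is named. Log2 CPM had a prior count of 2. Replicate number was the block. The study corrected counts for batch, which was taken here to be the replicate number. Libraries of the same number deviated together from their group means (correlations over genes of 0.31 to 0.74 in RNA and 0.26 to 0.52 in RPF). Libraries of different numbers gave -0.68 to 0.47 and -0.38 to 0.29, and in RNA those of replicates 2 and 3 were not clearly told apart (basal 2 correlated more with DHPG 3 than with DHPG 2). No 2 libraries of the same assay and treatment agreed within sampling noise. Each replicate is a pool of mice, and with the replicate block p-values measure the spread between pools of the DHPG to basal difference.

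Lengths, positions, isoforms and sequences are from GENCODE vM21 on GRCm38 (mm10), with the longest complete coding sequence of each gene (Biopython 1.88). GC content and length were known for 96.3% of the genes tested. Proteins were not analysed here. The steps were tested on simulated data.

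The 9 genes, the pathway lists and the marker lists were chosen with earlier results of these data known. Named from the pathway lists were the 2 genes with the smallest p in each assay and list, and any past the threshold; Grm5 was added after its values were seen, and Plcb2 was named whatever its value. Some genes that this rule names are not reported here. Likeness was given for the 4 genes with the largest RPF change. Depth limits the precision most for Plcb3, Plcb4, Homer2 and Homer3, and counting error does not include error from molecular identifiers.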

Additional observations from a re-analysis of the deposited data

How the results depend on the processing

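The count of the 9 genes past the threshold stayed at 0 in RNA, RPF and TE under all alternatives except 2: ComBat followed by DESeq2 called 1 in RNA (Agap2), and leaving out replicate 5 called 1 in RPF (Plcb4), so without 1 replicate number the count was 0 to 1. ComBat followed by DESeq2 also called 4 pathway genes in RNA (Shank3, Dlgap3, Dlg4 and Pitpnm2, higher) and 5 in RPF (among them Dgkg and Dgkb, lower, and Calm3 and Shank1, higher), of which Dlg4 was named after its value was seen. Over all genes, the 1 call in RNA and 29 in RPF became 100 and 427 with ComBat and DESeq2, 7 and 96 (and 4 in TE) with no filter on low counts, and 0 and 0 with no replicate block. Calls in RNA were 0 with at least 10 counts in every library, with DESeq2 and the replicate block, and with the GC offset, an alternative added after the data were seen; calls in RPF were 8 at an adjusted p of 0.01. Without one replicate number they ran from 0 to 22 in RNA, from 3 to 71 in RPF and from 0 to 8 in TE.

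Small log2 fold changes turned sign. With no replicate block these were Plcb1 in RNA (0.0065), Homer2 in RPF (-0.013), Homer3 in TE (0.029) and Plcb1 in TE (-0.012), and no other direction changed without the pairing. Homer2 in RPF was -0.014 with DESeq2 and the block, -0.0068 with ComBat and -0.0032 with the GC offset, and Plcb3 in RNA was -0.010 with the GC offset. Leaving out 1 replicate number gave ranges that spanned 0. In RNA these were -0.031 to 0.023 for Homer3, -0.019 to 0.050 for Plcb3 and -0.047 to 0.086 for Ncdn. In RPF they were -0.021 to 0.056 for Homer1, -0.062 to 0.049 for Homer2, -0.088 to 0.021 for Homer3, -0.033 to 0.013 for Plcb1 and -0.019 to 0.027 for Ncdn. In TE they were -0.076 to 0.050 for Homer3, -0.015 to 0.072 for Plcb1 and -0.063 to 0.033 for Ncdn. Plcb4, Agap2 and Dgkz kept their sign in each assay under all alternatives run, and the cause of the moved calls was not tested. DESeq2, ComBat and the GC offset were not run on TE. Basal ratios moved by less than 1 SD under each alternative, and so did basal levels except with the shortest isoform, which moved 4 in RPF and 6 in RNA. limma on TE differences had too little power here to bear on stability.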
